A study of Mus musculus with 9 samples.

Results

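The Rab GTPases were followed here through the treatment of mouse dendritic cells (DC), the cells that take up, process and present antigen, with inhibitors of histone deacetylases (HDACs). Members were taken as the genes whose array annotation symbol is Rab followed by digits and at most 1 letter, among probe sets with exactly 1 symbol. This gave 50 genes of the 12393 measured, carried by 95 probe sets, and where a gene had several, the brightest on average over the 9 arrays stood for it. The reference gene table holds 9 further Rab symbols of this form (Rab9b, Rab19, Rab26, Rab35, Rab36, Rab39, Rab39b, Rab42 and Rab44), which were not analysed here. The DC came from spleens of mice aged 6 to 8 weeks bearing B16 melanoma tumours that express Flt3L, a cytokine under which DC multiply, and were isolated with CD11c beads. All 9 samples share that origin. The labels give 3 arrays to untreated cells, 3 to cells treated with trichostatin A (TSA), a hydroxamic acid, and 3 to cells treated with butyrate, a short-chain fatty acid. Strain, dose, duration and whether replicates were separate mice are not in the labels, so the p-values measure the spread between these samples, which may be technical.

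Rab proteins are small GTPases that mark membranes inside the cell. Exchange factors (GEFs) load them with GTP on a given organelle, where they recruit effectors such as tethers and motors, and GTPase-activating proteins (GAPs) switch them off again. A GDP dissociation inhibitor (GDI) then extracts the protein, which is held in membranes by prenyl groups added after a Rab escort protein presents it to the geranylgeranyl transferase. In DC, Rab proteins steer the uptake of antigen, the maturation of phagosomes, the recycling of MHC molecules and the traffic of Toll-like receptors.

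Promoters of 4 members are shown because these genes carry the main contrasts of the data: Rab11a and Rab11b, close relatives that moved in opposite directions with TSA, and Rab3d and Rab4b, with a large rise and a large fall under both agents. Each line gives the 250 bases before the transcription start, 5′ to 3′ on the gene's strand (the minus strand for these 4 genes), from the RefSeq promoter table of build GRCm38.p6, with GGGCGG or its complement CCGCCC, the GC box that Sp-family factors bind, in capitals. Rab11a lies at chr9:64737757-64738006, Rab11b at chr17:33760487-33760736, Rab3d at chr9:21918184-21918433 and Rab4b at chr7:27178884-27179133.
Rab11a: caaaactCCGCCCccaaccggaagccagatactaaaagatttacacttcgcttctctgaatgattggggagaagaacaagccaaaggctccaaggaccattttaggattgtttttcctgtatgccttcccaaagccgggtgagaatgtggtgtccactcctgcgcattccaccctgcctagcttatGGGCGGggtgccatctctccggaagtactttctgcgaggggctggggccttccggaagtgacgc
Rab11b: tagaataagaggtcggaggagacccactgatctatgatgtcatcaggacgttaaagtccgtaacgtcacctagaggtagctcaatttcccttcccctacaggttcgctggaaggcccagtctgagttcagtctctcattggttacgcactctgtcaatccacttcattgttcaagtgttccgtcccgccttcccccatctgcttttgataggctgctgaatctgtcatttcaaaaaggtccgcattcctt
Rab3d: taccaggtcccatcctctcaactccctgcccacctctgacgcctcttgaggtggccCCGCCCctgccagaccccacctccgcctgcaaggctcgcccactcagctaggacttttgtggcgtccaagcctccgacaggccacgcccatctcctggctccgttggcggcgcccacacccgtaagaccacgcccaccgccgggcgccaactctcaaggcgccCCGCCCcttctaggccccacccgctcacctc
Rab4b: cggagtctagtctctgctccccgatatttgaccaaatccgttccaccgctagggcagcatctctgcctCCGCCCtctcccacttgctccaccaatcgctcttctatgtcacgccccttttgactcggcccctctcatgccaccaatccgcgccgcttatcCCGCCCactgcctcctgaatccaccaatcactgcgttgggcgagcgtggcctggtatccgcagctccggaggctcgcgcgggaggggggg

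The stretch before Rab11a holds 2 GC boxes and the stretch before Rab11b holds 0, with 10 and 9 CG dinucleotides. Rab3d, which rose, and Rab4b, which fell, hold 2 GC boxes each, with 18 and 20 CG dinucleotides. The table had windows of 300 bases (250 before to 50 after a start) for 42 of the 50 members, 54 windows in all, and none was found for Rab2a, Rab4a, Rab7b, Rab18, Rab27b, Rab30, Rab37 and Rab38. GGGCGG on either strand was in 68.5% of these 54 windows and in 55.4% of 12566 windows of all genes tested. Counted the same way on both strands, the E-box CACGTG was in 11.1% and 9.11%, CCAAT in 42.6% and 37.1%, and TATAAA in 3.70% and 9.81%. Windows of 1 gene can overlap, and the motifs were counted without regard to overlap between them. These are counts of letters and say nothing of binding.

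The deposited values are log2 levels, so a difference of 1 is a 2-fold change, and levels of different genes are not compared, since probe sets bind with different strength. The median SD of a member within a group was 0.0654 log2 units (n = 3) and the highest 0.304. Of the 50 members, 7 had a mean level under 5.29, the 25th percentile of all genes, where values approach the floor of the array and changes are understated. Among the DC markers in untreated samples, the MHC class II genes H2-Ab1 and Cd74 were at 13.98 and 14.39, Flt3 at 11.02 and the CD11c gene Itgax at 9.24. The mean over 15 DC markers ran from 10.43 to 10.47 on the untreated arrays. Markers of neutrophils were at like values, 10.53 to 10.59 over 9 genes, with the granule peptide Camp at 11.85, and shares of cells cannot be read from these levels. Hybridization controls, bacterial transcripts added to each sample, gave a higher signal with butyrate, at 10.78 ± 0.063 (SD, n = 3) against 10.37 ± 0.075 in untreated and 10.38 ± 0.030 in TSA samples. A scale with equal spike-ins lowers every butyrate change by about the same amount, moving the median change of all genes with butyrate from 0.08 to −0.33. Changes are given on the deposited scale, relative to the bulk of genes, and the spike-in scales are named for the Rab genes where they change a call. The butyrate rises that were lost or turned on the hybridization scale were not called on the poly-A scale either, so they are given for the hybridization scale alone.

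With TSA, the recycling genes Rab11b and Rab4b, the Golgi gene Rab30, the endosomal genes Rab20 and Rab21 and Rab32, of lysosome-related organelles, fell most among the Rab genes, while Rab34, Rab3d, Rab24 and Rab31 rose most. In all, 27 of the 50 Rab genes (54%) were called at a limma adjusted p under 0.05, beside 47.3% of all genes. Of these, 15 were higher (30%, against 26.3% of all genes) and 12 lower (24%, against 21%), shares near the background. The median change of the Rab genes was 0.04 and that of all genes 0.03. At least 2-fold changes were called for 2 rises and 4 falls, 6 of 50 members, beside 5.41% of all genes. With the arrays set to equal hybridization spike-ins 11 rises and 11 falls were called. Set to equal poly-A spike-ins, a second control whose level ranged from 8.24 to 8.85 among the untreated arrays, 6 rises and 6 falls were called. The share of all genes called was not counted on the spike-in scales, here or below. The hybridization scale ended the TSA calls of Rab5c, Rab7, Rab14, Rab18 and Rab33b, and the poly-A scale ended these and those of Rab1b, Rab2a, Rab2b, Rab5b, Rab6b, Rab7b, Rab11a, Rab38, Rab40c and Rab43, all with the same direction. Neither scale added a TSA call.

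With butyrate, 32 Rab genes (64%) were called, beside 58.4% of all genes. Of these, 19 were higher (38%, against 33.6% of all genes) and 13 lower (26%, against 24.8%). Rab11b, Rab30, Rab4b, Rab32 and Rab21 fell at least 2-fold, Rab3d and Rab24 rose at least 2-fold, and 7.33% of all genes passed that limit in either direction. The median Rab change was 0.06 beside 0.08 for all genes. On the hybridization spike-in scale 3 Rab genes were called higher (Rab24, Rab34 and Rab3d) and 32 lower, and with poly-A spike-ins 3 and 15. All genes shifted alike, with a median of −0.33 beside −0.35 for the Rab genes on the hybridization scale. On the poly-A scale these medians were −0.27 and −0.29. Of the 32 called lower with hybridization spike-ins, 13 were lower on the deposited scale too, 3 were higher there (Rab7, Rab17 and Rab22a) and 16 were called there in neither direction. The 16 were Rab2b, Rab3b, Rab5b, Rab5c, Rab8a, Rab8b, Rab9, Rab10, Rab14, Rab15, Rab18, Rab23, Rab27b, Rab28, Rab33b and Rab40b, at −0.57 to −0.25 on the hybridization scale, and of these Rab8a and Rab23 were also called lower on the poly-A scale. The 3 untreated arrays serve both comparisons, so the values of the agents stand side by side below and are not independent. The plot of all members shows the changes by compartment.

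**Figure D1:**
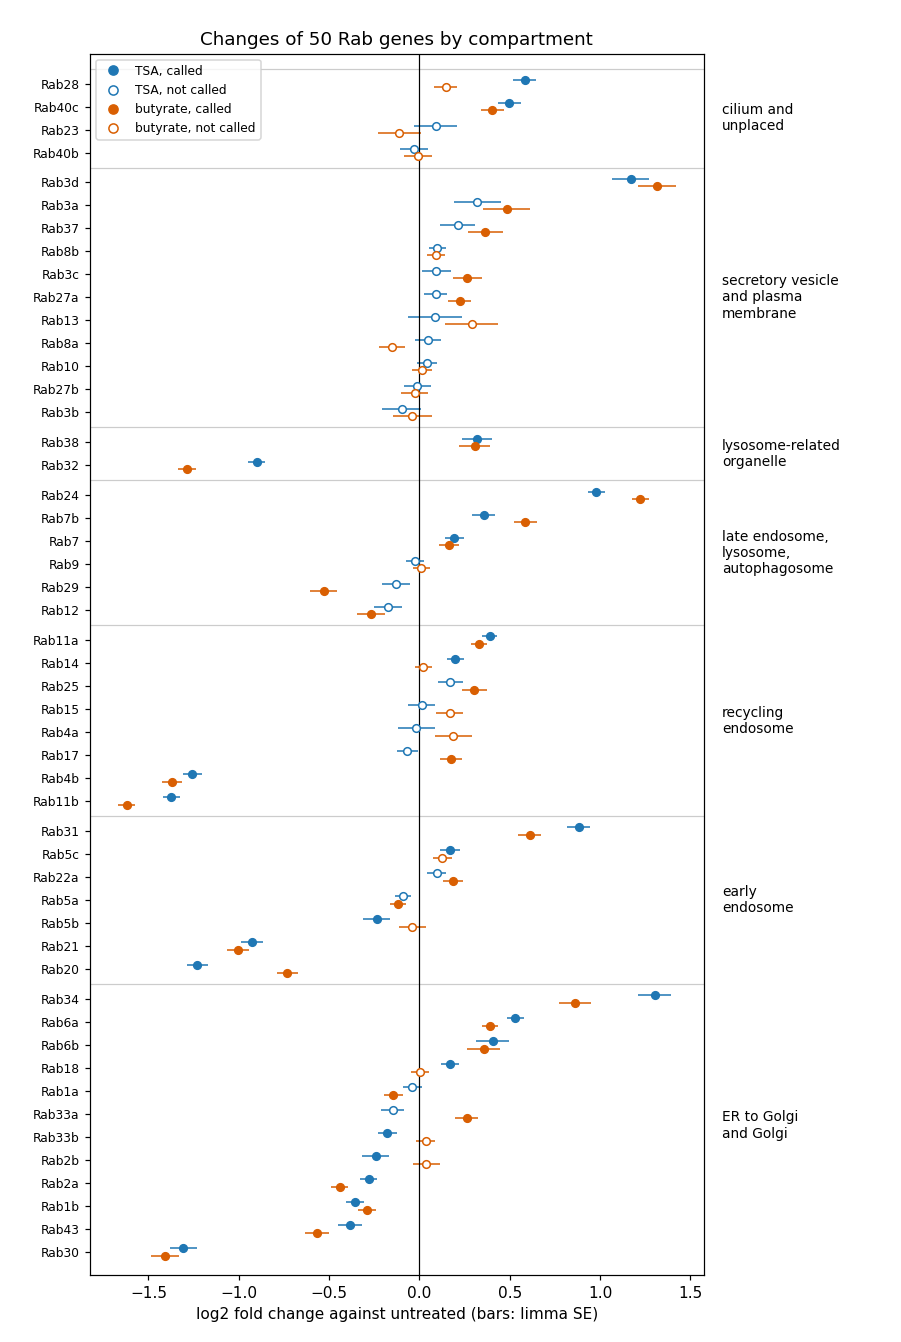
Log2 fold change of each of the 50 Rab genes with TSA (blue) and butyrate (orange) against untreated samples, grouped by compartment, with limma standard errors (n = 3 arrays per group). Filled points are called at an adjusted p under 0.05, and the changes run from −1.62 for Rab11b to 1.32 for Rab3d, both with butyrate.

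Among the 12 genes of the ER to Golgi route and the Golgi itself, 4 rose and 6 fell with TSA and 4 rose and 5 fell with butyrate, beside 26.3% higher and 21% lower among all genes with TSA and 33.6% and 24.8% with butyrate. Rab30, a Golgi Rab, had the largest fall of this group. Its levels were 8.59, 8.51 and 8.51 in untreated, 7.40, 7.19 and 7.10 in TSA and 7.06, 7.20 and 7.14 in butyrate samples. The treated arrays lie below the untreated ones with no overlap, at a change of −1.31 ± 0.077 with TSA (SE, limma adjusted p = 2.78e-07) and −1.41 ± 0.077 with butyrate (1.18e-07). Rab43, a Golgi Rab known to be needed for cross-presentation by CD8-type DC, fell from 9.93, 10.07 and 10.13 to 9.66, 9.73 and 9.60 with TSA and 9.40, 9.47 and 9.55 with butyrate, again with no overlap (−0.38 ± 0.065 and −0.57 ± 0.065), the TSA call being lost on the poly-A scale (adjusted p = 0.128). A second, dimmer Rab43 probe set was not called (0.01 and −0.15).

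Rab1a and Rab1b, which carry vesicles from the ER to the Golgi, differed in their calls. Rab1b fell from 8.73, 8.76 and 8.84 to 8.47, 8.37 and 8.42 with TSA and to 8.46, 8.49 and 8.51 with butyrate. Its changes were −0.36 ± 0.050 and −0.29 ± 0.050, with treated arrays below all untreated ones. On the poly-A scale the TSA fall of Rab1b was −0.38 and not called (adjusted p = 0.167). Rab1a was not called with TSA (−0.04 ± 0.053, adjusted p = 0.579) and was lower with butyrate (−0.14 ± 0.053, adjusted p = 0.0386). That butyrate call was lost in 6 of the 9 fits that leave out 1 array. These were the fits without untreated replicates 2 or 3, TSA replicates 2 or 3 or butyrate replicates 1 or 2 (adjusted p from 0.0538 to 0.134). A second, dimmer Rab1a probe set was called with neither agent (0.05 with TSA and 0.07 with butyrate). Rab2a, of Golgi to ER traffic, fell from 10.87, 10.90 and 10.84 to 10.64, 10.56 and 10.57 with TSA (−0.28 ± 0.048) and to 10.39, 10.43 and 10.47 with butyrate (−0.44 ± 0.048), and the TSA call was lost on the poly-A scale (adjusted p = 0.329). Of its other 6 probe sets, none was called with TSA and 1 with butyrate, in the same direction. Rab2b fell with TSA (−0.24 ± 0.075, adjusted p = 0.0208), a call lost without untreated replicate 2, untreated replicate 3 or TSA replicate 3 (adjusted p = 0.0511, 0.076 and 0.0852) and on the poly-A scale (0.437), and with butyrate its probe sets were called in opposite directions.

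Golgi genes that rose were Rab34 and both Rab6 genes. Rab34, a Golgi Rab that also acts in lysosome positioning and phagosome maturation, stood at 5.72, 5.91 and 6.02 in untreated samples, 7.10, 7.15 and 7.31 with TSA and 6.87, 6.65 and 6.72 with butyrate. The 3 groups do not overlap and TSA arrays were the highest. It rose by 1.30 ± 0.090 with TSA (adjusted p = 8.2e-07), the largest TSA rise among the Rab genes, and by 0.86 ± 0.090 with butyrate (1.41e-05), and its second probe set gave 1.58 and 0.94. Rab6a, of traffic within and back from the Golgi, rose from 10.12, 10.17 and 10.15 to 10.65, 10.64 and 10.73 with TSA (0.53 ± 0.045) and to 10.52, 10.54 and 10.54 with butyrate (0.39 ± 0.045). Rab6b, its relative best known from neurons, rose by 0.40 ± 0.093 and 0.35 ± 0.093, from levels of 6.58, 6.57 and 6.83 to 7.04, 7.02 and 7.13 and to 7.19, 6.86 and 6.99. The butyrate rises of Rab6a and Rab6b were lost on the hybridization spike-in scale (−0.03 and −0.06), and the TSA rise of Rab6b on the poly-A scale (adjusted p = 0.178). Of the remaining Golgi genes, Rab33b, tied to autophagy, fell with TSA (−0.18 ± 0.051) and Rab18, of ER and lipid droplets, rose with TSA (0.17 ± 0.051), and neither was called with butyrate, though both were called lower on the hybridization scale (−0.38 and −0.41). These small TSA calls were lost on both spike-in scales (−0.19 and 0.15 on the hybridization scale) and without single arrays, for Rab33b untreated replicate 2 or TSA replicate 2 (adjusted p = 0.0555 and 0.0583) and for Rab18 untreated replicate 1 or TSA replicates 2 or 3 (0.0617, 0.0602 and 0.0593). A second, dimmer Rab18 probe set was called lower with butyrate on the deposited scale (−0.27, limma adjusted p = 0.00525) and was not called with TSA (0.09). Rab33a, near the floor at 4.95, was higher with butyrate (0.26 ± 0.062) and at −0.15, not called, on the hybridization scale.

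At early endosomes, 2 of 7 genes rose and 3 fell with each agent, beside 26.3% higher and 21% lower among all genes with TSA and 33.6% and 24.8% with butyrate. Rab20, found on endosomes and phagosomes and induced by interferon gamma in macrophages, had levels of 7.43, 7.37 and 7.36 in untreated, 6.08, 6.15 and 6.24 in TSA and 6.58, 6.71 and 6.68 in butyrate samples. The groups are fully apart, with TSA lowest. It fell by 1.23 on the log2 scale with TSA (SE 0.057, adjusted p = 6.72e-08) and by 0.73 with butyrate (SE 0.057, adjusted p = 1.69e-06). Rab21, which moves integrins through endosomes, fell from 10.67, 10.76 and 10.82 to 9.87, 9.76 and 9.85 with TSA and to 9.66, 9.80 and 9.79 with butyrate. The fall was close to 2-fold with each agent (−0.93 ± 0.061 and −1.003 ± 0.061), and a second probe set gave −0.77 and −0.99. Rab31, of traffic between the trans-Golgi and endosomes, rose instead, from 8.04, 8.18 and 8.22 to 9.09, 9.04 and 8.94 with TSA (0.88 ± 0.064, adjusted p = 1.23e-06) and to 8.69, 8.81 and 8.76 with butyrate (0.61 ± 0.064), without overlap. A dimmer second probe set was called higher with TSA (0.52) and not with butyrate (0.19). On the hybridization spike-in scale the butyrate change of Rab31 was also 0.19 and not called.

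The Rab5 genes, which drive the fusion of early endosomes, differed by at most 1.18-fold (Rab5b with TSA). Rab5a was at 10.79, 10.74 and 10.74 in untreated, 10.68, 10.65 and 10.67 in TSA and 10.63, 10.67 and 10.62 in butyrate samples. Its change was not called with TSA (−0.09 ± 0.043, adjusted p = 0.119), and the butyrate call (−0.12 ± 0.043, adjusted p = 0.0377) was lost in 7 of the 9 fits that leave out 1 array, all but those without TSA replicate 1 or butyrate replicate 2 (adjusted p from 0.054 to 0.0958). Rab5b was lower with TSA (−0.24 ± 0.074) and Rab5c higher (0.17 ± 0.054), and neither was called with butyrate (−0.04 and 0.13), though both were called lower on the hybridization scale (−0.46 and −0.29). The Rab5b call was lost without untreated replicate 1 or TSA replicate 1 (adjusted p = 0.082 and 0.0759) and on the poly-A scale (0.45), and the Rab5c call without untreated replicates 1 or 2 or TSA replicates 1 or 3 (0.0861, 0.057, 0.0762 and 0.0754) and on both spike-in scales. Rab22a, which serves the recycling of MHC class I, had conflicting probe sets. The chosen one was higher with butyrate (8.40, 8.50 and 8.32 in untreated, 8.50, 8.50 and 8.49 in TSA, 8.60, 8.64 and 8.54 in butyrate samples, a change of 0.19 ± 0.055), a call lost without untreated replicate 3 (adjusted p = 0.0518) and turned to a lower one on the hybridization scale (−0.23). A second probe set was lower with each agent (−0.48 and −0.67), so no direction is given for this gene.

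Among the 8 genes of recycling endosomes 2 rose and 2 fell with TSA and 3 rose and 2 fell with butyrate, beside 26.3% higher and 21% lower among all genes with TSA and 33.6% and 24.8% with butyrate. Rab11b, the close relative of the recycling GTPase Rab11a, had levels of 9.68, 9.68 and 9.66 in untreated, 8.34, 8.24 and 8.33 in TSA and 8.01, 8.07 and 8.09 in butyrate samples. The 3 groups do not overlap, and butyrate arrays are the lowest. Rab11b was 2.59-fold lower with TSA (−1.37 ± 0.048, adjusted p = 1.39e-08) and 3.07-fold lower with butyrate (−1.62 ± 0.048, adjusted p = 3.27e-09). Rab11a, which returns cargo from the recycling endosome and carries Toll-like receptor 4 to phagosomes, rose instead. It went from 10.68, 10.66 and 10.68 to 11.06, 11.04 and 11.09 with TSA and to 11.00, 11.04 and 10.97 with butyrate, with treated arrays above all untreated ones (0.39 ± 0.043 and 0.33 ± 0.043, adjusted p = 2.91e-05 and 8.39e-05). Its second probe set gave 0.52 and 0.43. On the hybridization spike-in scale Rab11a was at −0.09 with butyrate and not called, so the opposite calls of this pair with butyrate depend on the scale, whereas with TSA both calls held on that scale. On the poly-A scale the TSA rise of Rab11a was 0.36 and not called (adjusted p = 0.208).

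Rab4b, of the fast recycling route, was the other large fall. Its levels were 8.94, 9.06 and 9.04 in untreated, 7.83, 7.70 and 7.74 in TSA and 7.67, 7.60 and 7.66 in butyrate samples. This is 2.39-fold lower with TSA (−1.26 ± 0.054, adjusted p = 4.39e-08) and 2.58-fold lower with butyrate (−1.37 ± 0.054, adjusted p = 1.43e-08), with no overlap. Rab4a lay near the floor (4.41 in untreated samples) on a probe set that can match several transcripts, and was not called, which says little about its RNA. Without butyrate replicate 1 Rab4a became called higher with butyrate (0.29, limma adjusted p = 0.0205) and for butyrate against TSA (0.31, adjusted p = 0.0292). Rab14, of traffic between trans-Golgi and endosomes, was higher with TSA on its brightest probe set (11.15, 11.23 and 11.20 against 11.45, 11.36 and 11.37, a change of 0.20 ± 0.047) and not called with butyrate (11.22, 11.22 and 11.19). On the hybridization scale Rab14 was not called with TSA (0.18) and was called lower with butyrate (−0.39), on the poly-A scale it was called with neither, and 4 of its other 5 probe sets were not called with TSA. Rab17 and Rab25, known from epithelia, were higher with butyrate (0.18 ± 0.059 and 0.30 ± 0.068), whereas on the hybridization scale Rab17 was called lower (−0.24) and Rab25 was not called (−0.11). The Rab17 call was also lost without untreated replicates 1 or 2 or butyrate replicates 1 or 3 (adjusted p = 0.0899, 0.0561, 0.0738 and 0.0917). A second, dimmer Rab17 probe set was not called with butyrate (−0.06). Rab15 was not called (−0.25 with butyrate, called lower, on the hybridization scale).

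**Figure D2:**
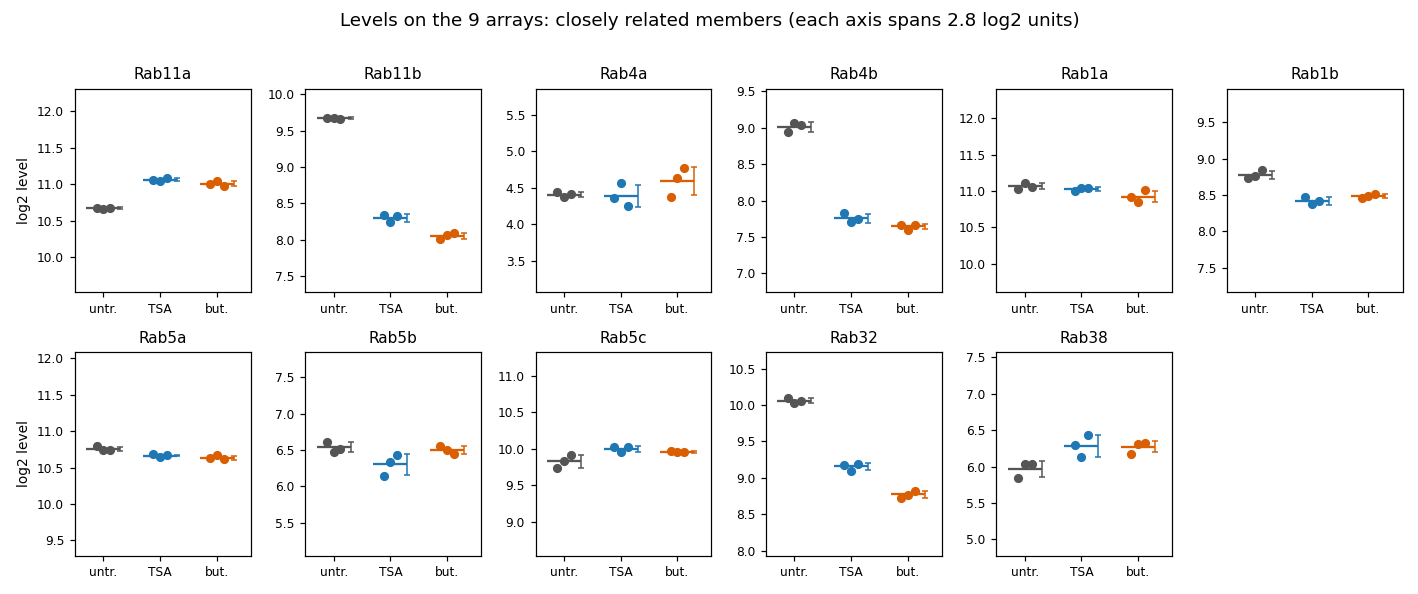
Log2 levels on each array for closely related Rab genes in untreated (grey), TSA (blue) and butyrate (orange) samples, with group means as horizontal lines and SDs as bars (n = 3). Rab11b fell from 9.67 to 8.30 and 8.05 while Rab11a rose from 10.67 to 11.06 and 11.00, and Rab32 fell while Rab38 rose by 0.32 and 0.30 on the deposited scale, though on the hybridization spike-in scale the butyrate changes of Rab11a and Rab38 were −0.09 and −0.11 and not called.

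Of 6 genes of late endosomes, lysosomes and autophagosomes, 3 rose and 0 fell with TSA, and 3 rose and 2 fell with butyrate, beside 26.3% higher and 21% lower among all genes with TSA and 33.6% and 24.8% with butyrate. Rab24, tied to autophagy, rose from 8.09, 8.17 and 8.13 to 9.14, 9.08 and 9.12 with TSA and to 9.33, 9.32 and 9.41 with butyrate. The 3 groups are apart, butyrate being highest. The changes were 0.98 ± 0.048 (adjusted p = 8.76e-08) and 1.22 ± 0.048 (adjusted p = 1.36e-08), with 0.85 and 1.09 on a second probe set. Rab7b, which curbs signalling by Toll-like receptors in macrophages, rose from 9.10, 9.28 and 9.21 to 9.46, 9.57 and 9.62 with TSA (0.36 ± 0.063) and to 9.84, 9.75 and 9.75 with butyrate (0.59 ± 0.063), and its second probe set was also called higher with each agent. On the hybridization scale the butyrate change of Rab7b was 0.17 and not called, and on the poly-A scale the TSA rise was not called (0.33, adjusted p = 0.275).

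Rab7, the main GTPase of late endosomes and of fusion with lysosomes, changed little. It was at 11.20, 11.27 and 11.35 in untreated, 11.43, 11.51 and 11.46 in TSA and 11.43, 11.42 and 11.47 in butyrate samples, higher by 0.19 ± 0.053 and 0.16 ± 0.053. These small calls turned on the scale, with the TSA call lost on both spike-in scales (0.18 on the hybridization scale) and butyrate called lower, at −0.25, after hybridization scaling, and a second probe set was not called (0.07 and −0.02). The butyrate call was also lost without untreated replicates 1 or 2 or butyrate replicate 3 (adjusted p = 0.0743, 0.052 and 0.0641). Rab29, which can recruit the kinase LRRK2, was not called with TSA (−0.13 ± 0.077) and fell with butyrate (8.00, 8.19 and 7.97 against 7.39, 7.56 and 7.61, a change of −0.53 ± 0.077, adjusted p = 0.000163). Rab12 was lower with butyrate (−0.27 ± 0.077), and Rab9, of the route from late endosomes to the Golgi, was not called (−0.02 and 0.01), though it was called lower with butyrate on the hybridization scale (−0.40).

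Rab32 and Rab38, relatives that build melanosomes and other lysosome-related organelles, moved apart. Rab32 was at 10.10, 10.03 and 10.05 in untreated, 9.18, 9.10 and 9.19 in TSA and 8.73, 8.77 and 8.82 in butyrate samples. The groups do not overlap and butyrate is lowest. It fell by 0.90 on the log2 scale with TSA (SE 0.049, adjusted p = 1.76e-07) and by 1.29 with butyrate (SE 0.049, adjusted p = 1.15e-08). Rab38 went from 5.84, 6.03 and 6.03 to 6.30, 6.13 and 6.43 (0.32 ± 0.086, adjusted p = 0.0104) and to 6.18, 6.31 and 6.33 (0.30 ± 0.086, adjusted p = 0.0112). Its butyrate change was −0.11 and not called on the hybridization scale, and its TSA rise was not called on the poly-A scale (adjusted p = 0.37). Markers of the cell types that the purified cells could hold were also measured. The shares of all genes called lower were 21% with TSA and 24.8% with butyrate, and of those called higher 26.3% and 33.6%. The macrophage and monocyte markers fell in 14 of 14 cases with TSA and 13 of 14 with butyrate, with 0 higher, and their mean level ran from 8.55 to 8.67 in untreated, 7.82 to 7.89 in TSA and 7.56 to 7.70 in butyrate samples. Their part in the falls of Rab20 and Rab32 was not tested, and in bulk RNA fewer cells of a type and less RNA per cell cannot be told apart. The 8 melanoma markers averaged 5.41 to 5.44 in untreated, 5.29 to 5.42 in TSA and 5.36 to 5.45 in butyrate samples, with the pigment genes Tyr (4.52), Dct (4.43) and Tyrp1 (4.40) near the floor in untreated samples. Of these 8, 1 was called higher and 2 lower with TSA, and 3 and 1 with butyrate. With TSA no marker of neutrophils, plasmacytoid DC, NK, B, T or erythroid cells or DC was called higher. Neutrophil markers fell in 6 of 9 cases with TSA, and with butyrate 3 rose and 5 fell, their mean level running from 10.53 to 10.59 in untreated, 9.85 to 9.94 in TSA and 10.10 to 10.14 in butyrate samples. Of 6 plasmacytoid DC markers 4 fell with TSA, and 1 rose and 5 fell with butyrate. Of 7 NK cell markers 3 fell with TSA, and 1 rose and 3 fell with butyrate, and of 9 B cell markers 6 fell with TSA and 2 with butyrate. Of 8 T cell markers 4 fell with TSA, and 1 rose and 1 fell with butyrate, and of 5 erythroid markers 4 fell with TSA, and 1 rose and 3 fell with butyrate. Of the 15 DC markers 9 fell with TSA, and with butyrate 9 fell and 3 rose (Irf4 by 0.68, Itgae by 0.26 and Irf8 by 0.22). The falls were larger: 2 with TSA and 3 with butyrate were at least 2-fold, the lowest changes being −2.08 and −2.01. With each agent 0 rises were at least 2-fold. The mean level of the DC markers ran from 10.43 to 10.47 in untreated, 9.96 to 9.98 in TSA and 9.91 to 9.94 in butyrate samples. The part of these cells in the Rab changes was not tested.

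Of the 11 genes of secretory vesicles and the plasma membrane, 1 rose and 0 fell with TSA, and 5 rose and 0 fell with butyrate, beside 26.3% higher and 21% lower among all genes with TSA and 33.6% and 24.8% with butyrate. Rab13, Rab27a, Rab27b and Rab3c had mean levels under the 25th percentile of all genes, where changes are understated and a fall can be missed. Rab3d, a granule Rab of secretory cells outside the nervous system, carried the large change. It was at 7.13, 7.14 and 6.73 in untreated, 8.25, 8.13 and 8.12 in TSA and 8.40, 8.26 and 8.28 in butyrate samples. Untreated replicate 3 was the lowest and the treated arrays lie above all untreated ones, with rises of 1.17 ± 0.103 (adjusted p = 4.93e-06) and 1.32 ± 0.103 (adjusted p = 1.69e-06). Its 3 other probe sets were also called higher with each agent, between 0.27 and 1.01 with TSA and between 0.37 and 0.74 with butyrate.

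The other secretory members moved less. Rab8b was at 12.31, 12.39 and 12.29 in untreated, 12.43, 12.39 and 12.47 in TSA and 12.41, 12.42 and 12.44 in butyrate samples (0.10 ± 0.048 and 0.09 ± 0.048, not called), and was called lower with butyrate on the hybridization scale (−0.32). Rab8a, which like Rab8b brings vesicles to the plasma membrane, was at 9.54, 9.74 and 9.62, then 9.66, 9.68 and 9.70, then 9.50, 9.35 and 9.60 (0.05 ± 0.072 and −0.15 ± 0.072, not called), and became called with butyrate without butyrate replicate 3 (−0.21, adjusted p = 0.0355). Both spike-in scales also called Rab8a lower with butyrate (−0.57, adjusted p = 4.17e-05, with hybridization and −0.51, adjusted p = 0.0277, with poly-A spike-ins). Rab10, which takes Toll-like receptor 4 to the cell surface, was at 11.77, 11.91 and 11.86 in untreated, 11.82, 11.91 and 11.94 in TSA and 11.86, 11.83 and 11.91 in butyrate samples (0.04 ± 0.056 and 0.01 ± 0.056, not called), and was called lower with butyrate on the hybridization scale (−0.40). A dimmer Rab10 probe set was called lower, by −0.15 and −0.37. Rab27a, which serves exosomes, cytotoxic granules and the phagosomes of DC, lay near the floor, at 4.61, 4.71 and 4.71, then 4.75, 4.75 and 4.81, then 4.98, 4.94 and 4.77, and its probe sets were called in opposite directions with butyrate (0.22 and −0.16). On the hybridization scale its butyrate change was −0.19 and not called. Its relative Rab27b lay lower still, between 4.04 and 4.18 in untreated samples and at most 4.16 with TSA and 4.24 with butyrate, and was not called, except lower with butyrate on the hybridization scale (−0.44). Rab3a, the synaptic vesicle Rab, Rab37 and Rab3c were higher with butyrate (0.48 ± 0.128, 0.36 ± 0.097 and 0.27 ± 0.080), and on the hybridization scale Rab3a was at 0.07, Rab37 at −0.05 and Rab3c at −0.15, none called. Rab3c lay near the floor (4.41 in untreated samples), and its other probe sets were not called with butyrate (0.08 and 0.02). Rab13 and Rab3b were not called with either agent. On the hybridization scale Rab3b was called lower with butyrate (−0.45), and on the deposited scale Rab13 became called higher with butyrate without untreated replicate 3 or butyrate replicate 2 (adjusted p = 0.0397 and 0.00701).

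Of the 4 members tied to cilia or left without a compartment, Rab28 and Rab40c rose with TSA, Rab40c also with butyrate, and 0 fell, beside 26.3% higher and 21% lower among all genes with TSA and 33.6% and 24.8% with butyrate. Rab28, known from photoreceptor cilia, was at 8.40, 8.61 and 8.41 in untreated, 9.06, 9.07 and 9.02 in TSA and 8.56, 8.65 and 8.64 in butyrate samples. It rose by 0.58 ± 0.063 with TSA (adjusted p = 2.38e-05) and was not called with butyrate (0.15 ± 0.063, adjusted p = 0.0727), a change that became called without untreated replicate 2 (0.21, adjusted p = 0.00786) and was called in the other direction on the hybridization scale (−0.27). Rab40c, the Rab part of a ubiquitin ligase, rose from 8.28, 8.19 and 8.27 to 8.80, 8.71 and 8.72 (0.50 ± 0.062) and to 8.65, 8.54 and 8.76 (0.40 ± 0.062), with −0.01 for butyrate on the hybridization scale. Its TSA rise was not called on the poly-A scale (0.47, adjusted p = 0.0648). A Rab40c probe set near the floor was not called (0.17 and 0.03), and a second Rab28 probe set was called higher with TSA (0.44). Rab23 and Rab40b were not called. On the hybridization scale both were called lower with butyrate (−0.53, adjusted p = 6e-05, and −0.42, adjusted p = 0.000273), and Rab23 also on the poly-A scale (−0.47, adjusted p = 0.046). In all, 11 members were called with neither agent on the deposited scale: Rab3b, Rab4a, Rab8a, Rab8b, Rab9, Rab10, Rab13, Rab15, Rab23, Rab27b and Rab40b.

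**Figure D3:**
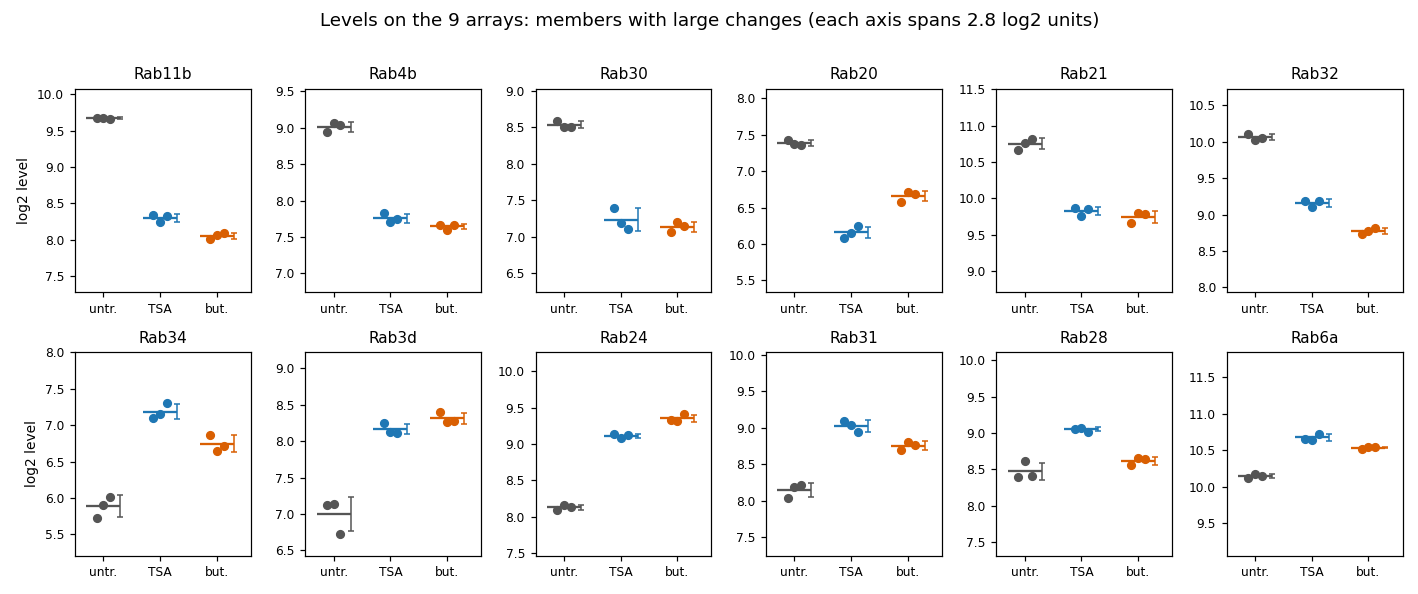
Log2 levels on each array for 12 Rab genes with large changes in untreated (grey), TSA (blue) and butyrate (orange) samples, with group means as horizontal lines and SDs as bars (n = 3). Rab11b, Rab4b, Rab30, Rab20, Rab21 and Rab32 lie lower on every treated array than on any untreated one, and Rab34, Rab3d, Rab24, Rab31 and Rab6a lie higher, though on the hybridization spike-in scale the butyrate rises of Rab31 (0.19) and Rab6a (−0.03) were not called.

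The agents were also compared directly. Butyrate samples had more Rab20, Rab33a, Rab2b, Rab24, Rab17, Rab7b and Rab33b than TSA samples, 7 genes, and less of 10 genes, led by Rab34, Rab28, Rab29 and Rab32. The 17 called were 34% of the members beside 35.9% of all genes, 14% being higher and 20% lower beside 15.9% and 20% of all genes. At least 2-fold changes numbered 0, beside 0.379% of all genes. Rab20 was 0.50 ± 0.057 higher with butyrate (adjusted p = 0.00015) and Rab33a 0.41 ± 0.062 (0.000753). Rab34 was lower by −0.44 ± 0.090 (adjusted p = 0.00401), Rab28 by −0.44 ± 0.063 (0.000581), Rab29 by −0.40 ± 0.077 (0.00283), Rab32 by −0.39 ± 0.049 (0.000277) and Rab31 by −0.27 ± 0.064 (0.00879). Rab11b was lower by −0.25 ± 0.048 (adjusted p = 0.00304). The direction of the balance turned on the scale, since 0 members were higher and 40 lower with hybridization spike-ins, and 0 and 12 with poly-A spike-ins. The median of all genes moved too, to −0.37 with hybridization and −0.29 with poly-A spike-ins, beside −0.42 and −0.35 for the Rab genes. The 7 higher calls were lost on both scales (Rab20 at 0.10 and Rab33a at 0.01 with hybridization spike-ins), the 10 lower ones were kept on the hybridization scale, and on the poly-A scale that of Rab6a was lost (adjusted p = 0.0589). Of the calls on the deposited scale, those of Rab2a, Rab2b, Rab6a, Rab7b, Rab14 and Rab18 were lost without single TSA or butyrate arrays. For Rab14 this was TSA replicate 1 (adjusted p = 0.0578), for Rab7b TSA replicate 1 or butyrate replicate 1 (0.0691 and 0.0629) and for Rab2b TSA replicate 3 or butyrate replicate 2 (0.0578 and 0.051). Rab2a lost its call without TSA replicates 1 or 3 or butyrate replicates 1 or 2 (adjusted p from 0.0501 to 0.0897), Rab18 without TSA replicates 2 or 3 or butyrate replicates 1 or 2 (0.0623 to 0.0965) and Rab6a without any 1 treated array (0.0556 to 0.12). Doses are not given in the labels, so these are differences between the samples as treated.

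The machinery that loads and serves Rab proteins was listed as 184 genes, of which 111 were measured. With TSA 35 of them rose and 31 fell, with a median change of 0.06, and with butyrate 36 rose and 38 fell (0.02), beside 26.3% higher and 21% lower among all genes with TSA and 33.6% and 24.8% with butyrate. As for the Rab genes, butyrate rises of these lists depend on the scale: with hybridization spike-ins 2 exchange factors were higher and 21 lower, and 2 GAPs were higher and 14 lower. Of the genes of prenylation and GDI recycling 1 was higher and 10 lower on that scale. The median butyrate change of all genes was −0.33 there, and the share of all genes called was not counted. Among genes of prenylation and GDI recycling, 2 of 12 rose and 3 fell with TSA and 3 rose and 4 fell with butyrate. Rabif, a chaperone of nucleotide-free Rab proteins, fell with each agent (−1.29 ± 0.099 with TSA and −1.38 ± 0.099 with butyrate). The enzymes of the prenyl donor split. Fdps, which makes farnesyl diphosphate, fell (−0.70 ± 0.072 and −1.20 ± 0.072), while Ggps1, which extends it to geranylgeranyl diphosphate, rose (0.75 ± 0.078 and 0.90 ± 0.078). The escort protein Chm fell (−0.22 ± 0.053 and −0.46 ± 0.053), the transferase subunit Rabggtb rose (0.30 ± 0.050 and 0.18 ± 0.050), and Gdi2 was not called (0.10 and −0.06). On the hybridization scale Rabggtb (−0.23) and Gdi2 (−0.47) were called lower with butyrate, and on the poly-A scale the TSA calls of Chm and Rabggtb were lost (adjusted p = 0.51 and 0.434).

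Of 31 exchange factors, 11 rose and 10 fell with TSA and 11 rose and 13 fell with butyrate. Beside these and the GAPs below, 26.3% of all genes were higher and 21% lower with TSA, and 33.6% and 24.8% with butyrate. The falls were largest for Dennd6a (−1.11 ± 0.061 with TSA and −0.68 ± 0.061 with butyrate), Dennd4b (−0.82 ± 0.052 and −0.98 ± 0.052) and Rin2, a Rab5 exchange factor (−0.48 ± 0.084 and −1.12 ± 0.084). Hps1, part of the exchange factor of Rab32 and Rab38, fell as well (−0.84 ± 0.079 and −0.62 ± 0.079), and Rab3gap2, part of that of Rab18, rose (0.82 ± 0.088 and 0.88 ± 0.088). Of 19 GAPs, 7 rose and 6 fell with each agent. Tbc1d24 rose (1.30 ± 0.102 and 1.34 ± 0.102), Tbc1d8 fell (−1.10 ± 0.045 and −0.94 ± 0.045), and Tbc1d19 rose with TSA (1.13 ± 0.147) and was not called with butyrate (−0.01, and −0.42, called lower, on the hybridization scale).

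Of 13 effectors at early and recycling endosomes 6 were called higher and 3 lower with TSA, and 5 and 7 with butyrate. For this and the lists that follow, the shares of all genes were 26.3% higher and 21% lower with TSA, and 33.6% and 24.8% with butyrate. Rufy1, an effector of Rab4 and Rab14, fell (−1.04 ± 0.059 and −1.26 ± 0.059), and Rab11fip5, which binds Rab11, rose (0.78 ± 0.091 and 0.74 ± 0.091), the butyrate call being lost on the poly-A scale (0.39). Rabepk, known as an effector of Rab9 and placed in this list, rose (1.20 ± 0.080 and 1.43 ± 0.080). At late endosomes and lysosomes 4 of 14 rose and 3 fell with TSA, and 4 rose and 4 fell with butyrate. The kinase Lrrk1, which acts on Rab7, fell (−1.11 ± 0.056 and −1.51 ± 0.056), as did the tethering subunit Vps16 (−0.48 ± 0.050 and −0.72 ± 0.050). Of 10 Golgi effectors 3 rose and 3 fell with TSA and 2 rose and 1 fell with butyrate, with the dynein adaptor Bicd2 of Rab6 higher (0.48 ± 0.136 and 0.98 ± 0.136), the TSA call being lost on the poly-A scale (adjusted p = 0.0799). Of 12 effectors of secretion 2 rose and 3 fell with TSA, and 4 rose and 3 fell with butyrate. On the hybridization scale 0 effectors of secretion were higher and 8 lower with butyrate. The butyrate counts on that scale were 0 and 10 at late endosomes and lysosomes, 1 and 7 at the Golgi and 2 and 9 at early and recycling endosomes. All genes shifted down there, with a median butyrate change of −0.33, and the share of all genes called was not counted. The myosin Myo5a, a motor for Rab27a and Rab11 vesicles, fell with each agent (−1.19 ± 0.067 and −1.74 ± 0.067). Of 12 Arf, Arl and Sar GTPases, the other traffic family, 6 were higher and 4 lower with TSA, and 4 and 4 with butyrate.

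**Figure D4:**
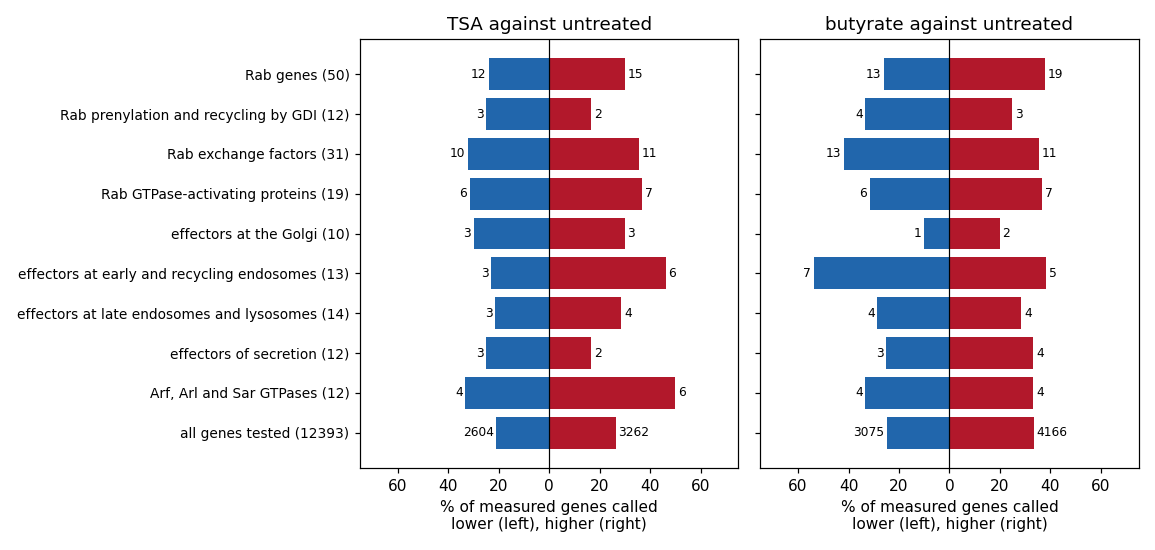
Share of measured genes called lower (blue, left) and higher (red, right) at an adjusted p under 0.05 for the Rab genes, the lists of their regulators and effectors, the Arf, Arl and Sar GTPases and all genes tested, with the number of genes at each bar. The Rab genes were called in 15 and 12 cases with TSA and 19 and 13 with butyrate, on the deposited scale.

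Where a gene had further probe sets, these were fitted over all probe sets. Among the 30 further probe sets of members called with TSA, 14 had the same call, 0 the opposite call and 16 were not called. Of 27 with butyrate, 10 had the same call, 2 the opposite one (Rab22a and Rab27a) and 15 none. Rab11b, Rab4b, Rab30, Rab20 and Rab32 rest on 1 probe set each, while Rab21, Rab24, Rab34, Rab3d, Rab6a, Rab11a and Rab7b kept direction and call on all their probe sets with each agent.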

How the data were processed

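Total RNA of 9 samples was labelled with biotin and hybridized to Affymetrix arrays. The authors deposited log2 values of 22690 probe sets, with RMA as the 1 program named, per the submitters' processing notes, and its version is not given in the sources used here. Values spanned 3.03 to 15.2, with array medians between 6.70 and 6.75. Probe sets were named from the platform annotation (20380 with 1 symbol, 691 with several, 1555 unnamed, 64 controls), and 12393 genes were kept, the brightest probe set standing for each. Promoters come from RefSeq tables of GRCm38.p6. The number of arrays limits the precision.

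All 12393 genes and 9 arrays entered a single linear fit with group means and no replicate block in limma 3.58.1 (R 4.3.3), with 6 residual and 3.9 prior degrees of freedom. Adjusted p-values are Benjamini-Hochberg values over all genes of a comparison, and a call is an adjusted p under 0.05. Values after ± beside a log2 change are standard errors from that fit. Members, compartments, lists and alternatives were chosen with earlier results of these data known. Array values were to be given for the 10 largest non-overlapping rises and falls with each treatment, the 5 largest of butyrate against TSA and members known in DC. For Rab2b, Rab3a, Rab17, Rab33a and Rab37, which this rule takes in, only changes are given, and for Rab27b only ranges. Of each list, changes were to be given for up to 4 called genes in each treatment, and Gdi2, not called, is given besides. The method was tested on simulated data with independent normal noise, in which the changed genes were a small part of the 12393. In the TSA comparison it recovered 99% of the 100 genes given a log2 change of 1, up or down. It recovered 72% of the 50 given a fall of 0.5 and 36% of the 50 given a rise of 0.25, and made 4 false calls. In the butyrate comparison it recovered 99%, 78% and 42% of them and made 12 false calls, and for butyrate against TSA 99%, 82% and 32% with 4 false calls. In the measured data 47.3% of all genes were called with TSA, 58.4% with butyrate and 35.9% between the agents. The cutoff set by the adjustment is looser there, so these recovery rates and false calls do not describe the calls of this report. Same-numbered replicates did not deviate together (correlations of deviations from −0.12 to 0.21).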

Additional observations from a re-analysis of the deposited data

How the results depend on the processing

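The counts of called Rab genes stayed within 1.5 times the main count (27, 32 and 17 for TSA, butyrate and butyrate against TSA) in all but the following settings. With poly-A spike-ins 12 were called for TSA and 18 for butyrate. With hybridization spike-ins 40 were called for butyrate against TSA. With an adjusted p under 0.01, 10 were called for butyrate against TSA, and with a 2-fold limit 6, 7 and 0. Leaving out each array in turn gave 24 to 29, 29 to 32 and 13 to 19. Without untreated replicate 3, Rab3a (0.44), Rab12 (−0.24) and Rab25 (0.23) became called with TSA (limma adjusted p = 0.0153, 0.0308 and 0.0161). Rab5c became called with butyrate in that fit (0.17, adjusted p = 0.0239). Without untreated replicate 1, Rab37 became called with TSA (0.29, adjusted p = 0.0434). The replicate block gave 27, 31 and 15. It removed the calls of Rab1a and Rab5a with butyrate (adjusted p = 0.0602 and 0.0701) and of Rab2a and Rab6a for butyrate against TSA (0.0541 and 0.0606), added Rab15 with butyrate (0.0487) and changed no other call of a member. The falls of Rab11b, Rab4b, Rab30, Rab20, Rab21 and Rab32 and the rises of Rab34, Rab3d and Rab24 with each agent kept direction and call on both spike-in scales and without any 1 array.

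Direction turned, where the main or the other value was called, for the following members, with the log2 change under that setting; the shift of the butyrate arrays is part of both spike-in scales, and the cause was not tested elsewhere. Under the hybridization spike-in scale, for butyrate against TSA, these were Rab15 (−0.25), Rab17 (−0.16), Rab1b (−0.33), Rab22a (−0.31), Rab24 (−0.16), Rab25 (−0.27), Rab27a (−0.27), Rab2b (−0.12), Rab33b (−0.19), Rab37 (−0.25), Rab3b (−0.34), Rab3c (−0.23), Rab3d (−0.26), Rab40b (−0.38), Rab5b (−0.20), Rab7b (−0.17) and Rab9 (−0.37). Under the hybridization spike-in scale, for butyrate against untreated, these were Rab10 (−0.40), Rab11a (−0.0851), Rab14 (−0.39), Rab15 (−0.25), Rab17 (−0.24), Rab18 (−0.41), Rab22a (−0.23), Rab25 (−0.11), Rab27a (−0.19), Rab28 (−0.27), Rab2b (−0.38), Rab33a (−0.15), Rab33b (−0.38), Rab37 (−0.0501), Rab38 (−0.11), Rab3c (−0.15), Rab40c (−0.0108), Rab5c (−0.29), Rab6a (−0.0259), Rab6b (−0.0605), Rab7 (−0.25), Rab8b (−0.32) and Rab9 (−0.40). Under means of probe sets, for butyrate against TSA, this was Rab2a (0.0307). Under means of probe sets, for butyrate against untreated, these were Rab18 (−0.14) and Rab22a (−0.19). Under the most variable probe set, for TSA against untreated, these were Rab10 (−0.15) and Rab14 (−0.12). Under the most variable probe set, for butyrate against TSA, these were Rab14 (0.43) and Rab2b (−0.17). Under the most variable probe set, for butyrate against untreated, these were Rab10 (−0.37), Rab18 (−0.27), Rab22a (−0.0784), Rab2b (−0.50) and Rab40b (0.27). Under the poly-A spike-in scale, for butyrate against TSA, these were Rab17 (−0.0867), Rab24 (−0.0858), Rab2b (−0.0479), Rab33b (−0.12) and Rab7b (−0.0987). Under the poly-A spike-in scale, for butyrate against untreated, these were Rab11a (−0.025), Rab17 (−0.18), Rab22a (−0.17), Rab25 (−0.0513), Rab27a (−0.13), Rab33a (−0.0936), Rab38 (−0.05), Rab3c (−0.0899), Rab6b (−0.0004) and Rab7 (−0.19).

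For dim members such as Rab4a, Rab27a, Rab27b and Rab3c, low signal limits what a missing call can say.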
